A study of Sus scrofa with 4 samples.

Results

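The expression of 10 genes of prostaglandin synthesis and reception was followed through the differentiation of porcine intramuscular preadipocyte (PIP) cells and the stimulation of the resulting adipocytes (pMA). The genes were PTGS1, PTGS2, PTGES, PTGIS, PTGDS, PTGR1, PTGIR, PTGFR, PTGER4 and PTGFRN. They were taken as every probe whose gene name on the array equalled one of these symbols, which gave 19 probes of 43589 probes with a gene name, and 10 of 34842 gene names. All 10 symbols were also found in the RefSeq gene table of the pig. The rule matches names only and uses no measured value, but the 10 genes were chosen with earlier results of these data known, so that their counts beside those of all gene names below are a description and not a comparison with unselected genes.

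PIP cells are a line derived from the intramuscular fat tissue of the pig, and all groups came from this line. The first group was undifferentiated PIP cells without stimulation. The other groups were grown for 4 days in differentiation medium with 50 ng/ml insulin, 0.25 μM dexamethasone, 2 mM octanoate and 200 μM oleate, so that all pMA were exposed to dexamethasone, a glucocorticoid, which the growth medium of PIP cells did not contain. These were unstimulated pMA, pMA stimulated for 12 h with serotonin, and pMA stimulated for 12 h with 2.5 µg/ml tumor necrosis factor (TNF)-α. The serotonin dose was 100 μM in the methods, while the labels write it per ml. RNA was pooled within a group and hybridized to 1 array per group, so that a difference between groups had no replicate check and no test was possible. The 4 arrays lay on 1 slide and were read in 1 color, Cy3.

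Prostaglandins are short-lived lipid mediators made from arachidonic acid, which phospholipases release from membranes. The cyclooxygenases PTGS1 and PTGS2 convert it to prostaglandin H, and terminal synthases turn this into prostaglandin E (PTGES), prostacyclin (PTGIS) or prostaglandin D (PTGDS). The products act on neighbouring cells through G protein-coupled receptors, among them PTGIR, PTGFR and PTGER4, and are inactivated by dehydrogenases and reductases such as PTGR1. In adipose tissue, prostaglandins are known to act on adipogenesis, lipolysis and inflammation, some of them in opposite directions.

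Each probe is an oligonucleotide of 60 bases, and its position is given as the first base in the target transcript named in the array's annotation. The array annotation gives no genome build, so that no chromosome position is stated here. The probes below belong to 6 of the genes with a difference past 2-fold in at least 1 comparison, and the sequences show what was hybridized. They are printed in lower case from the 5′ end, as 60 bases or as the first 30 bases.
PTGS1 at base 2249: actgactttctgattggcgattcagaatgt
PTGES at base 394: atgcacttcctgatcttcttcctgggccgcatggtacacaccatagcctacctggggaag
PTGIS at base 1384: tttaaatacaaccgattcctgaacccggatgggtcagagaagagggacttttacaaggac
PTGR1 at base 736: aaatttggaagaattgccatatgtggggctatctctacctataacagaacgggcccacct
PTGIR at base 3858: caacatcacaagtggattaaatgtcactca
PTGFR at base 3731: ctgagcataggtttagggctaataatggat

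The pair of PTGS2 probes is shown because they overlap and are not independent measurements. They start 5 bases apart and share 55 of their 60 bases, and the capitals mark the 25 bases printed for both. The lower-case end of the probe at base 3508 is also shared, with an unprinted part of the other probe.
PTGS2 at base 3508: GGTTGAGAGTCAGTAATAGAAGGGCgtgta
PTGS2 at base 3503: gttttGGTTGAGAGTCAGTAATAGAAGGGC

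Values are given as the intensity in the order PIP cells, unstimulated pMA, serotonin and TNF-α, and as a level, the log2 intensity minus that of the 75th percentile of the array. The percentile was 515, 479, 566 and 559. The share of all probes well above background, the scanner software's own call, was 56.5% in PIP cells and in unstimulated pMA, 60.9% after serotonin and 66.0% after TNF-α. The error after ± is the technical error of 1 log2 difference, combined from the errors that the software gives to both spots, and does not cover the spread between cultures. Repeated spots of 1 probe had a standard deviation of 0.10 to 0.13 on the log2 scale. Of the 19 probes, 13 were well above background on all 4 arrays and 4 on none. A gene with several probes is represented by the brightest, and 9 of the 10 representatives were well above background on all 4 arrays, the exception being PTGER4. Array intensity cannot tell less RNA per cell from fewer cells that hold the RNA.

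The cell labels were compared with marker genes. Of 9 adipocyte markers, 6 were well above background in PIP cells, 6 in unstimulated pMA, 6 after serotonin and 7 after TNF-α, and their summed intensity was 1608, 7494, 21924 and 11559. The lipid droplet gene PLIN2, the fatty acid transporter CD36 and the lipoprotein lipase LPL carried most of this sum, with 5138, 1084 and 958 in unstimulated pMA and 12127, 3557 and 6026 after serotonin. Other adipocyte markers did not follow the sum. The fatty acid binding protein FABP4 had intensities of 19.1, 150, 26.0 and 478, the first not well above background, and was lowest among the pMA groups after serotonin. PPARG, a master regulator of adipogenesis, had 26.4, 51.7, 57.6 and 112. The fat cell hormone ADIPOQ was not well above background in any pMA group, nor was the lipid droplet gene PLIN1 on any array, so that these defining markers of mature adipocytes were not detected in pMA. Summed fibroblast markers, 8 of 9 listed genes on the array, were 447558, 452685, 356620 and 440169. COL1A2, with 208194, 178802, 112260 and 171650, and VIM, with 200923, 227195, 211723 and 228817, carried most of this sum. COL1A1, COL1A2, THY1 and DCN were lowest on the serotonin array, whereas VIM, LUM, PDGFRB and the dim DLK1 were not. Of 3 leukocyte markers on the array, CD14 and AIF1 were well above background on every array and CD163 on none, with sums of 828, 1026, 1125 and 1734. CD14 alone had 697, 891, 1039 and 1645, whereas AIF1 had 125, 122, 74.1 and 75.5 and was lower on both stimulated arrays. Of 5 endothelial markers, KDR and PECAM1 were well above background on every array, CDH5 and TEK on none, and the sums were 819, 554, 273 and 648. The 6 muscle markers summed to 330423, 313951, 98414 and 340260, nearly all of it ACTA1. MYOD1 and MYF5 were not well above background on any array. DES, with 4115, 4593, 2669 and 5729, and MYOG, with 279, 370, 434 and 468, were well above background on every array. MYH1 was well above background in the pMA groups only. The 3 epithelial markers summed to 17.1, 56.0, 43.9 and 48.6. The adipocyte sum was therefore highest, and the fibroblast, endothelial and muscle sums lowest, on the serotonin array, while the leukocyte sum was highest on the TNF-α array through CD14. The part of cell composition in the differences below was not tested.

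In the comparison of pMA with PIP cells, which asked what changed with differentiation, PTGS2 was 5.25-fold lower in pMA, while PTGIS was 4.98-fold and PTGDS 2.87-fold higher. The other 6 genes with a ratio differed by less than 2-fold. Thus, 2 of the 9 genes were at least 2-fold higher and 1 was at least 2-fold lower. Over all gene names with a ratio, 9.94% were at least 2-fold higher and 3.56% at least 2-fold lower, and among the names that are pig gene symbols 7.47% and 4.77%. The median difference was 0.11 for the 9 genes and 0.12 for all gene names, so that as a set they lay where the array lay.

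The stimulated groups were compared with unstimulated pMA to see how adipocytes respond to an endocrine or an inflammatory signal. In pMA stimulated with serotonin, the cyclooxygenases PTGS2 and PTGS1 and the reductase PTGR1 were 9.79-fold, 3.13-fold and 3.07-fold higher than in unstimulated pMA, and PTGIS was 2.41-fold lower. These were 3 genes higher and 1 lower of 9, beside 2.08% of all gene names higher and 4.74% lower by at least 2-fold, or 2.45% and 4.81% of the gene symbols. The median was 0.87 for the 9 genes and 0.01 for all gene names.

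In pMA stimulated with TNF-α, the prostacyclin receptor PTGIR was 9.31-fold, PTGES 3.74-fold, PTGFR 2.69-fold and PTGS1 2.05-fold higher than in unstimulated pMA. No gene was at least 2-fold lower, and PTGIS came nearest with a 1.83-fold lower value. These 4 of 9 genes stood beside 2.21% of all gene names higher and 1.35% lower by at least 2-fold, or 2.9% and 1.19% of the gene symbols. The median was 0.93 for the 9 genes and 0.01 for all gene names. From its microarray data, the paper lists PTGS2 as down-regulated and PTGIS as upregulated after both stimuli, the reverse of the directions here. It also lists PTGER4 as upregulated and PTGIR as unchanged after TNF-α, where PTGER4 had no ratio here. For PTGS1 and PTGFR, which it lists as upregulated after both stimuli, the directions were the same. The comparisons of both stimuli share the unstimulated pMA array, so that an error in that array moves both in the same direction. The comparison of pMA with PIP cells uses this array too, and the same error would move it the other way. The differences of PTGS2 and PTGIS with differentiation and with stimulation are therefore not separate observations.

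The direct comparison of the stimulated arrays does not use the unstimulated pMA. After serotonin, PTGS2 was 5.14-fold and PTGR1 2.92-fold higher than after TNF-α, whereas PTGIR was 5.02-fold, PTGDS 2.35-fold and PTGES 2.11-fold lower. Of all gene names, 1.83% were at least 2-fold higher and 5.07% at least 2-fold lower on the serotonin array, and of the gene symbols 2.11% and 6.18%. The members counted 2 higher and 3 lower of 9. The median was -0.56 for the 9 genes and -0.04 for all gene names.

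**Figure D1:**
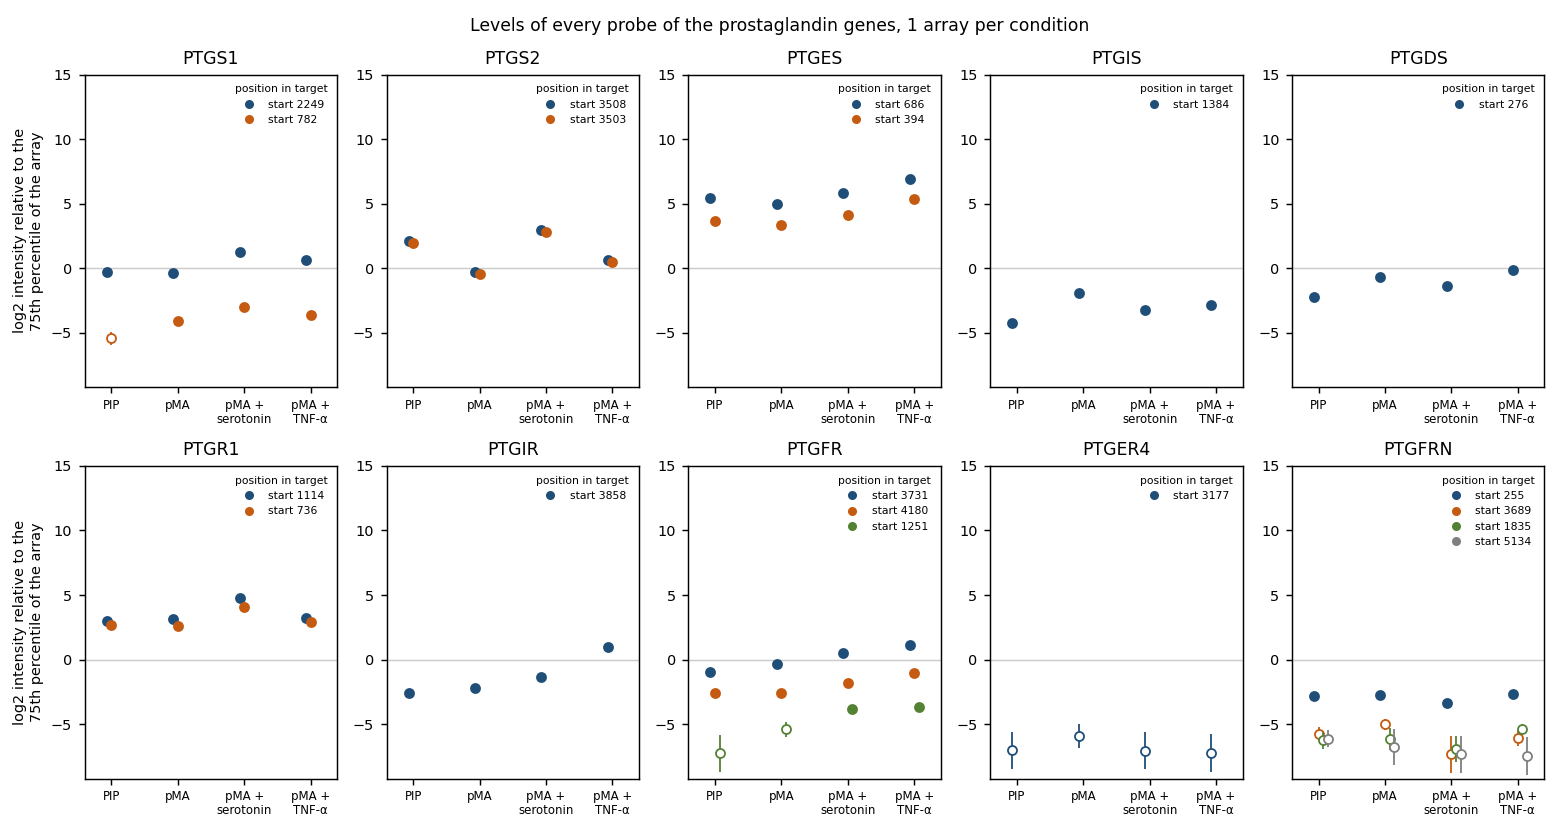
The y axis gives the log2 intensity of every probe relative to the 75th percentile of its array, with 1 panel per gene and 1 column per condition. Filled points were well above background, open points were not, bars give the technical error of the spot, and colors mark the probes by their first base in the target. PTGS2 is lowest in unstimulated pMA and highest after serotonin, PTGES, PTGIR and PTGFR are highest after TNF-α, and PTGER4 has open points only.

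PTGS1, the cyclooxygenase that most tissues express constitutively, gave intensities of 415, 369, 1365 and 885 with its brighter probe, at base 2249. PIP cells and unstimulated pMA lay at the same level, -0.31 and -0.37, with a gap of 0.06 that is within the technical error of 0.21. Both stimulated arrays lay above both unstimulated ones. The difference from unstimulated pMA was 1.65 ± 0.20 after serotonin and 1.04 ± 0.20 after TNF-α, and the gap between the stimuli was 0.61 ± 0.20. The dimmer probe at base 782 gave 12.1, 27.9, 71.4 and 46.7, the first of which was not well above background. It kept the order of serotonin, TNF-α and unstimulated pMA, with differences of 1.11 ± 0.34 and 0.52 ± 0.35. The probes did not give the same picture for differentiation, where the dimmer one was at least 2.04-fold higher in pMA. The TNF-α difference of PTGS1 fell below 2-fold, to 0.78, when the probes were averaged.

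PTGS2, the inducible cyclooxygenase and a known early response gene, was lower in unstimulated pMA than on any other array. Its intensities were 2192, 387, 4484 and 863 with the probe at base 3508 and 1975, 361, 4034 and 794 with the probe at base 3503. On both probes the levels rank unstimulated pMA, TNF-α, PIP cells and serotonin from low to high, and with the first probe the steps were 0.93, 1.46 and 0.90, each over 2 technical errors. The level after TNF-α thus stayed below that of undifferentiated cells, while the level after serotonin passed it. The difference was -2.39 ± 0.20 for pMA against PIP cells, 3.29 ± 0.20 for serotonin and 0.93 ± 0.20 for TNF-α. Counted from the highest value down, the serotonin difference ranked 10th among 17362 gene names measured above background on both arrays. Counted from the lowest value up, the difference in pMA against PIP cells ranked 71st of 16587. The TNF-α value lay just inside 2-fold in the main processing and reached 1.01 when the arrays were scaled to the spike-in controls.

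PTGES, the inducible microsomal synthase that makes prostaglandin E downstream of PTGS2, was bright on all 4 arrays. The probe at base 686 gave 22095, 15348, 32076 and 67020, and the probe at base 394 gave 6546, 5027, 9949 and 23212. Both probes had the same order, with unstimulated pMA lowest, then PIP cells, serotonin and TNF-α. After TNF-α the difference from unstimulated pMA was 1.90 ± 0.20 and 1.98 on the respective probes, and after serotonin it was 0.82 ± 0.20 and 0.74. Counted from the highest value down, the TNF-α value ranked 77th of 17633 gene names. PTGS2 and PTGES therefore had their highest levels under different stimuli. The differentiation value of PTGES was -0.42 ± 0.20, and it shrank to -0.04 with spike-in scaling.

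PTGIS, which isomerizes prostaglandin H to prostacyclin, was dim but above background on every array, with intensities of 27.0, 125, 61.1 and 79.4. Unstimulated pMA was the highest and PIP cells the lowest, and both stimulated arrays lay between. The difference was 2.32 ± 0.29 for pMA against PIP cells, -1.27 ± 0.23 for serotonin and -0.88 ± 0.22 for TNF-α. The stimulated arrays were 0.39 ± 0.23 apart, under 2 technical errors. It was the single member lower than in unstimulated pMA after both stimuli by more than the error. The values depended on the background correction because the probe is dim. With the normexp correction they were 1.07, -0.81 and -0.54, so that the serotonin difference no longer passed 2-fold.

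PTGDS, the lipocalin-type synthase of prostaglandin D, gave 112, 299, 216 and 502. The order was PIP cells, serotonin, unstimulated pMA and TNF-α, and each step was over 2 technical errors, at 0.81, 0.71 and 0.52. Thus the stimuli lay on opposite sides of unstimulated pMA, with -0.71 ± 0.21 after serotonin and 0.52 ± 0.21 after TNF-α, and their direct difference was -1.23 ± 0.21. The value in pMA against PIP cells was 1.52 ± 0.21. PTGDS and PTGIS had 1 probe each, so that no second probe could be compared. By RT-qPCR, the paper reports PTGS1 and PTGDS as significantly upregulated after both stimuli. The array value of PTGDS after serotonin therefore has the opposite direction to that assay, while its TNF-α value and both values of PTGS1 have the same direction.

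PTGR1, a reductase that inactivates oxidized prostaglandins and leukotriene B, gave 4156, 4158, 15068 and 5098 with the probe at base 1114. The probe at base 736 gave 3312, 2868, 9436 and 4153. The serotonin array stood apart on both probes. PIP cells, unstimulated pMA and TNF-α were 0.11 and 0.07 apart on the first probe, within the error of 0.20, and serotonin was 1.55 ± 0.20 above TNF-α. The serotonin difference from unstimulated pMA was 1.62 ± 0.20 on the first probe and 1.48 on the second. The first ranked 85th from the highest of 17362 gene names.

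**Figure D2:**
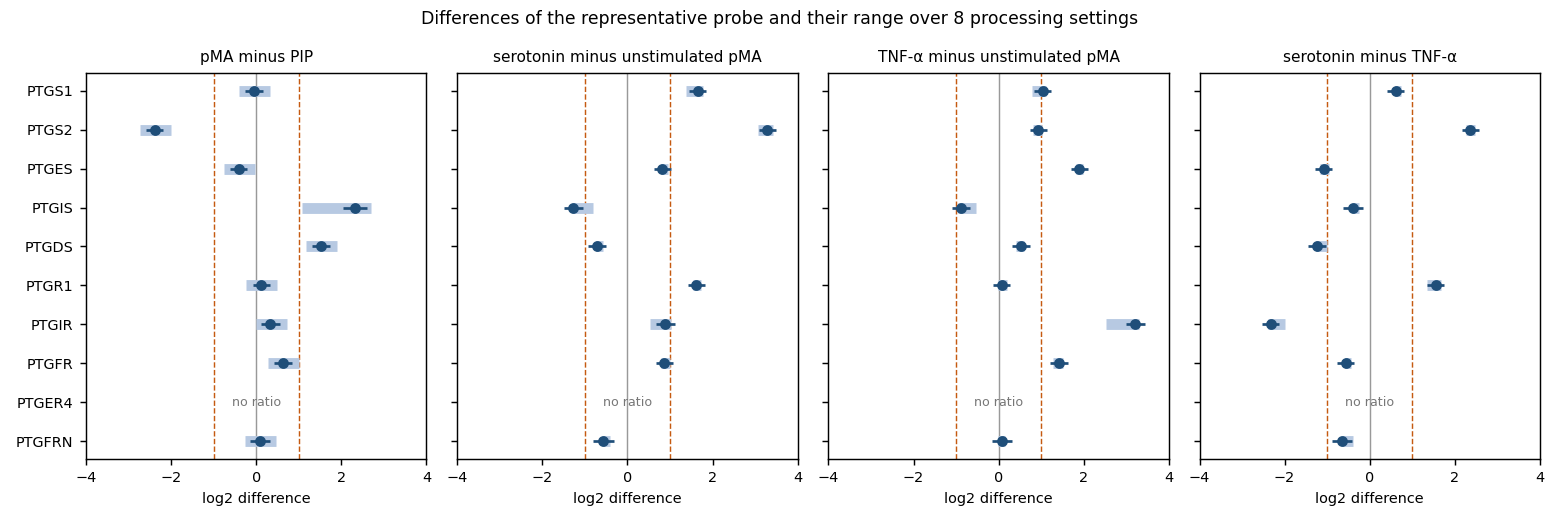
Each panel gives the log2 difference of the representative probe in 1 comparison, with the gene on the y axis. Points and dark bars are the difference and its technical error, pale bars span the lowest and highest value over 8 processing settings, and dashed lines mark 2-fold. The pale bar of PTGIS in pMA minus PIP, from 1.07 to 2.70, is the widest, and PTGS2 after serotonin stays between 3.08 and 3.42.

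PTGIR, the prostacyclin receptor, had the largest TNF-α difference of the set. Its probe gave 87.0, 102, 223 and 1106, and the TNF-α array stood well above the other arrays. The difference from unstimulated pMA was 3.22 ± 0.22 after TNF-α, ranking 23rd from the highest of 17633 gene names, and 0.89 ± 0.22 after serotonin. PIP cells and unstimulated pMA were 0.33 apart, under 2 technical errors, and the sign of this gap turned with median scaling, to -0.02. With the normexp correction the TNF-α value was 2.52 and the serotonin value 0.52. The receptor and PTGIS, the enzyme that makes its ligand, lay on opposite sides of unstimulated pMA after TNF-α and after serotonin. PTGIR had 1 probe.

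PTGFR, the receptor of prostaglandin F, had 3 probes. The brightest, at base 3731, gave 267, 383, 826 and 1202, and the probe at base 4180 gave 85.0, 81.5, 166 and 280. Both placed TNF-α highest, serotonin next and the unstimulated arrays below. The TNF-α difference was 1.43 ± 0.21 and 1.56 ± 0.23, and the serotonin difference 0.87 ± 0.21 and 0.78 ± 0.23. The probe at base 1251 gave 3.38 and 11.4 in PIP cells and unstimulated pMA, where it was not well above background, and 41.2 and 43.7 after serotonin and TNF-α, where it was. For it the values against unstimulated pMA were at least 1.81-fold and at least 1.94-fold higher, and the stimuli were 0.10 apart, within the error of 0.26. For differentiation the brightest probe gave 0.63 ± 0.21 and the next 0.05 ± 0.24, so that the probes differed.

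PTGER4, a receptor of prostaglandin E, gave 4.01, 8.1, 4.27 and 3.76 and was not well above background on any array. No ratio was formed. For comparison, the faintest probe called well above background had an intensity of 14.7 in PIP cells, 19.2 in unstimulated pMA, 16.2 after serotonin and 14.7 after TNF-α, so that PTGER4 expression was not detectable with this probe.

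PTGFRN, a membrane protein that binds PTGFR and inhibits its ligand binding, gave 71.6, 70.7, 56.4 and 87.6 with the probe at base 255. The serotonin array was the lowest, and PIP cells, unstimulated pMA and TNF-α were 0.09 and 0.08 apart, within the error. The serotonin difference was -0.57 ± 0.25 and the TNF-α difference 0.08 ± 0.23, the latter with a sign that turned to -0.01 under the normexp correction. The other 3 probes of PTGFRN were not well above background on any array, with intensities from 3.18 to 15.1. Thus PTGFR was higher after both stimuli, while PTGFRN was lower after serotonin and within the error of unstimulated pMA after TNF-α.

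**Figure D3:**
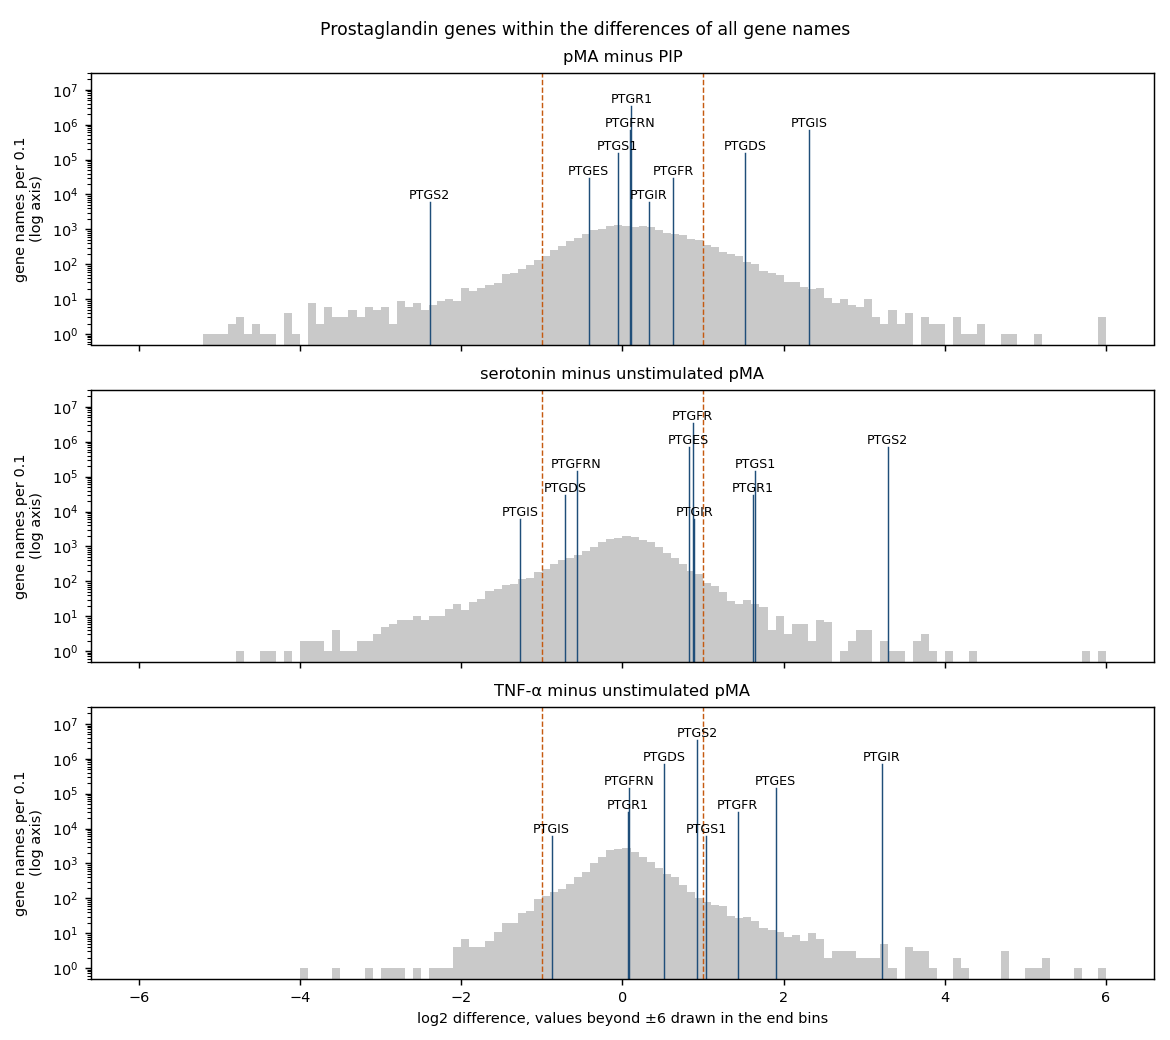
Grey bars count gene names per 0.1 of log2 difference on a log axis, for pMA minus PIP, serotonin minus unstimulated pMA and TNF-α minus unstimulated pMA. Blue lines mark the 9 prostaglandin genes with a ratio, their heights only separate the labels, and dashed lines mark 2-fold. PTGS2 after serotonin (3.29) and PTGIR after TNF-α (3.22) lie in the far right tails.

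Scaling matters most for differentiation. The median of all gene names in pMA against PIP cells was 0.12 with the 75th percentile, -0.22 with median scaling and 0.52 with spike-in scaling, and the share of higher values among those past 2-fold was 73.6%, 34.1% and 93.0%, or 54.7% with quantile normalization. The 3 genes past 2-fold in this comparison stayed past it in the same direction under these scalings, whereas PTGS1, PTGR1, PTGIR and PTGFRN changed sign with median or spike-in scaling, and their direction with differentiation is not settled. For TNF-α the share was 62.2%, and 50.2%, 49.3% and 73.7% with median, quantile and spike-in scaling. For serotonin it was 30.6%, and 47.0% with spike-in scaling, and for serotonin against TNF-α 26.5%, 40.3% with median scaling and 39.4% with quantile normalization. ACTB, which codes for actin, differed by 0.43 in pMA against PIP cells, -0.29 after serotonin and -0.19 after TNF-α, and the 7 spike-in probes by -0.38, -0.13 and -0.08.

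Beside the 10 genes, a list of 54 other genes of prostaglandin and leukotriene metabolism was read out. Of these, 24 were on the array by name, 15 were well above background on all 4 arrays and 8 on none, and 16 had a ratio. None was at least 2-fold different with differentiation or after TNF-α. After serotonin 3 were at least 2-fold higher, namely PLA2G4A, AKR1C1 and AKR1C4, and none lower. Over all gene names with a ratio, 9.94% were at least 2-fold higher and 3.56% lower with differentiation. The shares were 2.08% and 4.74% after serotonin, and 2.21% and 1.35% after TNF-α. The median over the 16 genes was 0.00 for differentiation, 0.25 for serotonin and 0.07 for TNF-α.

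PLA2G4A, the cytosolic phospholipase that releases arachidonic acid, had levels of 2.77, 2.02, 3.55 and 1.95. Its differences were -0.75 for pMA against PIP cells, 1.53 ± 0.20 after serotonin and -0.07 after TNF-α, so that it was lower in pMA and higher after serotonin, as was PTGS2. AKR1C1, an aldo-keto reductase of a family that reduces steroids and prostaglandins, had levels of -2.04, -1.15, 2.59 and -0.82. Of its 6 probes, 3 had a ratio after serotonin, from 3.73 ± 0.21 on this brightest probe up to 5.43. In serotonin against TNF-α, 4 probes had a ratio, and the values ran from -0.16 to 5.56. AKR1C4 had levels of 2.69, 3.63, 5.76 and 4.33 and a serotonin difference of 2.13 ± 0.20. Both genes belong to the same family, and whether their probes share target RNA was not tested.

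The other synthases of prostaglandin E differed less than PTGES. PTGES2, a membrane-associated form, had levels of 2.23, 1.90, 2.01 and 1.94, and PTGES3, a cytosolic form that is also a chaperone partner, had levels of 3.86, 3.43, 3.96 and 3.58. After TNF-α their differences were 0.04 and 0.15, within the technical error, and after serotonin they were 0.11 and 0.53. PTGER3, the one receptor on the list with a ratio, had differences of 0.46, -0.47 and 0.09 for differentiation, serotonin and TNF-α. ALOX5AP, which presents arachidonic acid to the lipoxygenase of the leukotriene pathway, had 0.54, 0.65 and -0.15. HPGD, the dehydrogenase that starts prostaglandin breakdown, was not well above background on any array, and PTGER2 was not on the array by name.

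**Figure D4:**
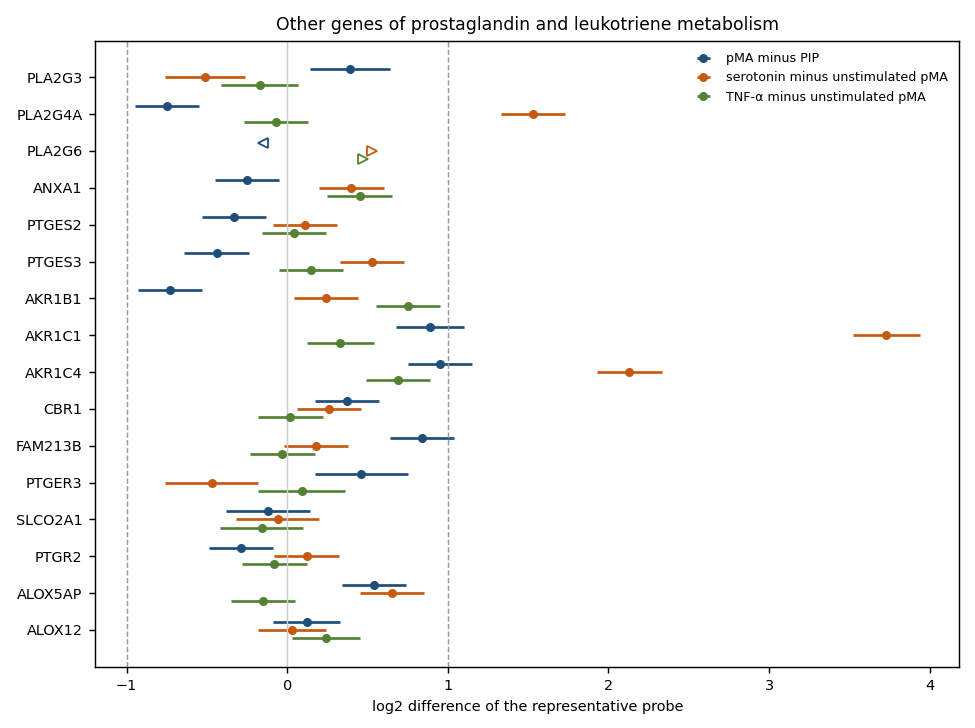
The log2 difference of 16 further genes of prostaglandin and leukotriene metabolism is shown on the x axis, with colors for differentiation, serotonin and TNF-α. Bars are technical errors, open triangles are lower bounds of the change that point away from 0, and dashed lines mark 2-fold. AKR1C1, AKR1C4 and PLA2G4A after serotonin are the points past 2-fold.

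For PTGS1, PTGS2, PTGIS and PTGIR, the genes with the most similar pattern were sought among 4709 gene symbols well above background on all arrays. Similarity was the root mean square difference of the 4 log2 levels after removal of each gene's mean, so that a smaller value is a closer match, and with 4 points it is a description. The nearest to PTGS1 was TSTD1 at 0.11, followed by TLR6 at 0.13, GPCPD1 at 0.16, OLFML2A at 0.17 and TBX2 at 0.20. PTGS2 had no close match, with NQO1 at 0.50, GCLC at 0.64, RDH10 at 0.66, IER3 at 0.68 and PLA2G4A at 0.70. Nearest to PTGIS were ADAMTS2 and CD55 at 0.23, CD302 and PDE2A at 0.24 and LYPD6 at 0.27. Nearest to PTGIR were the chemokine CCL20 at 0.32, PROCR and the mitochondrial superoxide dismutase SOD2 at 0.33, RHCG at 0.34 and NDUFAB1 at 0.35. In the order CCL20, PROCR, SOD2, RHCG and NDUFAB1, the TNF-α differences were 3.59, 3.07, 3.67, 2.3 and 3.7, beside 3.22 for PTGIR. The serotonin differences in that order were 1.79, 0.1, 1.53, 0.23 and 0.57, beside 0.89 for PTGIR.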

How the data were processed

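Total RNA was pooled within each of the 4 groups, and Cy3-labeled cRNA was hybridized to an Agilent porcine 4 × 44K array. Per the file headers, Agilent Feature Extraction 10.7.3.1 subtracted background and wrote the deposited intensity of each spot together with its error, outlier flags and the call of well above background. The methods also describe a mouse array, GenePix software and a two-color protocol, whereas the deposited files hold 1 color on a porcine array. The value table of the authors holds each intensity as a ratio to 1 constant per array, on a linear scale and without centring of genes, and served as an alternative.

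Here, log2 intensity was reduced by the 75th percentile of the 43803 non-control spots of its array, and outlier spots (12, 1, 3 and 4) were left out. No spot was saturated. Spots of a probe were averaged. Where 1 array of a pair was not well above background, the fold is a lower bound against the higher of the faintest intensity well above background and the probe's own value, and no ratio was formed where both were dim. Levels of different probes were not compared. Each group was 1 array, so that no test was run, and the number of arrays limits the precision. All 10 members and every probe are named, and of the 54 listed pathway genes those past 2-fold plus PTGES2, PTGES3, PTGER2, PTGER3, PLA2G4A, ALOX5AP and HPGD. The 10 members, the gene lists and the markers were chosen with earlier results of these data known. Alternatives were median, quantile and spike-in scaling, normexp background correction with an offset of 50 (limma 3.58.1 in R 4.3.3), no filter on dim probes, the mean over probes, the authors' value table, and 1.5-fold and 4-fold thresholds. Python 3.11.15, numpy 2.4.6 and pandas 2.3.3 were used, and the calculation was tested on simulated data. Sequences came from the array files.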

Additional observations from a re-analysis of the deposited data

How the results depend on the processing

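The 36 differences of the members were recomputed under 7 alternatives. In 30 the sign was the same under every alternative, and none of the 16 past 2-fold changed sign. In 6 the side of 2-fold changed, with ranges of 0.78 to 1.12 for PTGS1 and 0.81 to 1.01 for PTGS2 after TNF-α, -1.28 to -0.81 for PTGIS and 0.52 to 1.02 for PTGIR after serotonin, 0.28 to 1.01 for PTGFR with differentiation, and -1.16 to -0.96 for PTGES in serotonin against TNF-α. The cause was not tested beyond the construction of each alternative. Some alternatives could hardly move the 36 differences. Dropping the filter on dim probes could move none of them, because all were well above background on both arrays. The authors' values differ from the main ones by 1 constant per array, close to the 75th percentile used here. The mean over probes could not move a member with 1 probe. With a 4-fold threshold 1 member was higher in each of the 4 comparisons, 0 were lower after serotonin and 1 in serotonin against TNF-α. With a 1.5-fold threshold 6 were higher and 2 lower after serotonin, and 1 was lower after TNF-α. Shares of all gene names past 1.5-fold or 4-fold are not given here, so that these counts describe the members only. With the normexp correction 0 were lower after serotonin. Without the filter on dim probes 2 were lower after serotonin and 1 after TNF-α, PTGER4 then having a value that no array measured above background. Over all gene names, 2515, 1302, 704 and 1509 passed 2-fold in differentiation, serotonin, TNF-α and serotonin against TNF-α. With normexp the counts were 824, 578, 267 and 694, without the filter 7128, 3901, 3235 and 4447, and with spike-in scaling 4405 passed in differentiation.

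No paired analysis was possible because each group is 1 array. Each comparison rests on 1 array per side, so that none can be repeated with an array left out. Dim probes such as those of PTGIS, PTGER4 and PTGFRN lie close to the background, and their values are limited by it.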
